A study of Mus musculus with 6 samples.

Results

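The complement system is a set of plasma proteins, made mostly by hepatocytes, that bind microbes, immune complexes and dying cells and cut each other in a cascade. It is entered through the classical pathway (C1q with its proteases C1r and C1s, bound to antibody), the lectin pathway (mannose-binding lectins and ficolins with the MASP proteases) or the alternative pathway (factors B and D with properdin). All 3 routes meet at C3, whose cleavage leads to C5 and to the membrane attack complex of C5b to C9, and host cells are protected by soluble and membrane-bound regulators. Liver supplies most of these proteins, whereas C1q and properdin come largely from macrophages and other myeloid cells, and factor D from fat.

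The 32 complement genes described here were taken by symbol from tables of read counts for 23284 genes, and all 32 were found. They comprise 8 genes of the classical pathway, 5 of the lectin pathway, 3 of the alternative pathway, C3, 7 of the terminal pathway, 6 regulators and 2 receptors. RNA was measured by sequencing in livers of C57BL6/J mice aged 8 weeks, in 3 wild type libraries (WT1 to WT3) and 3 libraries of Trim24 -/- mice (KO1 to KO3), and the genotypes were the only groups. Trim24 encodes a cofactor of nuclear receptors, and the study's title concerns hepatic lipid storage and liver tumours. The labels do not say how the Trim24 allele was made, nor whether each library is a separate mouse, so the spread behind each p-value is that among libraries and may be technical.

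Reads counted in genes ranged from 1495583 to 2872421 per library, which was 4.22% to 6.69% of the counted reads. Trim24 itself had 31 to 45 counts per wild type library and 2 to 3 counts per knockout library (log2 fold change -4.46, SE 0.39, edgeR adjusted p = 2.1e-05). Levels are given in CPM, read counts brought to the same total of reads in tested genes, after scaling each library by its TMM factor. Of 10 hepatocyte markers 9 were found, and they summed to 110964 to 121738 CPM in wild type and 78812 to 107064 CPM in knockout libraries. None of the 9 was called by edgeR, which called 3.08% of all tested genes higher and 2.65% lower. DESeq2 called 1 of the 9 lower and limma-voom called 0. At an unadjusted edgeR p under 0.05, 4 were lower, against 915 of all 9180 tested genes. The part of that shift in the complement values was not tested. The 4 Y-linked genes examined were counted in all 6 libraries (lowest count 36), and so no library lacked Y-chromosome transcripts. The sum over 20 pancreatic acinar markers was 707 to 1099 CPM in KO1 and KO3 and 12.5 to 39.8 CPM elsewhere. In whole liver, fewer cells of a type and less RNA per cell cannot be told apart.

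Of the complement genes 4 passed the threshold in the knockout livers. Mbl2, C4a and C1qc rose and C8g, a chain of the membrane attack complex, fell. Of the 32 members 28 passed the filter on low counts, and C7, Cfd, C3ar1 and C5ar1 did not. By edgeR's quasi-likelihood test at an adjusted p under 0.05, 3 of the 28 were higher, against 3.08% of all 9180 tested genes, and 1 was lower, against 2.65%. In 8 of the 28 every knockout library was above every wild type library, against 12.4% of all tested genes. In 1 every knockout library was below, against 12.6%. The median log2 fold change (knockout minus wild type) was 0.25 over the 28 members and 0.01 over all tested genes, and 20 were positive and 8 negative. Without the 4 called members, the remaining 24 tested members had a median of 0.24 and ranged from -0.17 to 1.27. In each library, the log2 of CPM + 1 of each of the 28 members was also taken minus its wild type mean. The median of these differences was -0.05, 0.11 and -0.05 in wild type and 0.09, 0.33 and 0.30 in knockout libraries. By this measure the groups overlapped, with KO1 below WT2.

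**Figure D1:**
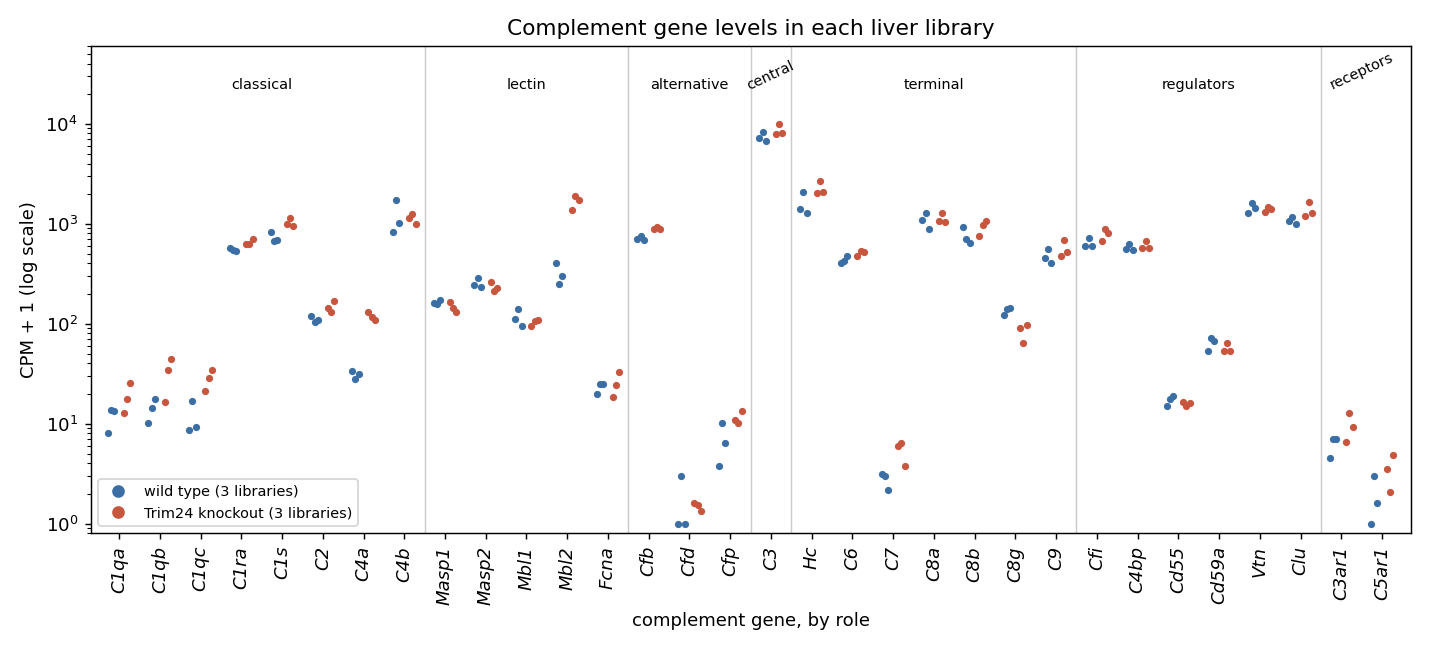
CPM + 1 on a log scale for each of the 32 complement genes, grouped by role, with 1 point per library (blue wild type, red knockout). CPM are not divided by transcript length, so heights compare libraries within a gene. The red points of Mbl2 and C4a stand clear above the blue ones, those of C8g stand below, and most other genes overlap or lie close.

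**Figure D2:**
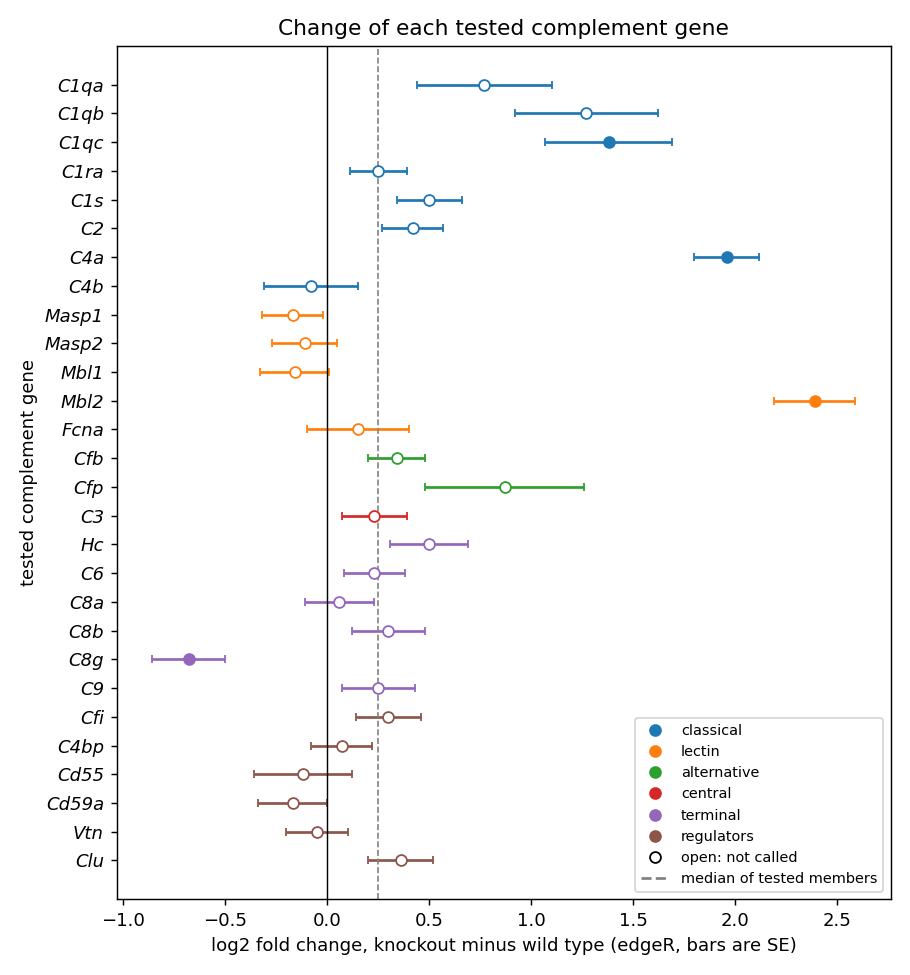
Log2 fold change, knockout minus wild type, of the 28 tested complement genes with SE bars, coloured by role and filled where edgeR called the gene. Mbl2 (2.39) and C4a (1.96) lie far to the right, C8g (-0.68) is the filled point left of 0, and the dashed line marks the median of 0.25.

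The lectin pathway held the largest rise. Mbl2 encodes mannose-binding lectin C, a plasma lectin that binds sugars on microbes and carries the MASP proteases. Its level was 404, 251 and 301 CPM in wild type and 1383, 1896 and 1729 CPM in knockout libraries, in the order of their numbers. Every knockout library lay far above every wild type library. The means were 319 ± 77.7 and 1669 ± 262 CPM (SD, n = 3), and the log2 fold change was 2.39 (SE 0.20, edgeR adjusted p = 1.5e-05). Divided by transcript length, Mbl2 went from rank 7 of the 32 members in wild type, at 293 CPM per kilobase, to rank 2 in the knockout, at 1533 CPM per kilobase. There it stood next to C3, which had rank 1 in both groups (1429 and 1680 CPM per kilobase).

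The other lectin of the pair was not called. Mbl1, which encodes mannose-binding lectin A, was at 111, 140 and 93.8 CPM in wild type and 93.5, 105 and 109 CPM in knockout libraries. These groups overlapped (log2 fold change -0.16, SE 0.17, edgeR adjusted p = 0.65). As a share of the reads of both genes, Mbl2 took 78.4%, 64.3% and 76.2% in wild type and 93.7%, 94.8% and 94.1% in knockout libraries. The exact two-sided permutation test over libraries gave p = 0.1 for this share, which is the smallest p that 3 against 3 can give (3 such shares were computed, adjusted p = 0.1). Each of the 3 shares was that of a called member whose groups did not overlap, so these p-values add no support to the calls. No window of 50 bases in the transcript of either gene was found in a transcript of another gene.

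The start regions of the 2 lectin genes are shown because Mbl2 rose and Mbl1 was not called. Each window runs from 250 bases before to 50 after the gene's start, from RefSeq on GRCm38.p6. Mbl2 lies on the plus strand at chr19:30232678-30232977 and Mbl1 on the plus strand at chr14:41151206-41151505. Capitals mark matches to any of 4 motifs searched on both strands: AGGTCA (the hexamer bound by many nuclear receptors, the class of factors that Trim24 binds), TTCNNNGAA (STAT), the interferon response core (a tandem repeat of GAAA with a spacer of 2 bases) and TATAAA (the core promoter element bound by TBP).
Mbl2: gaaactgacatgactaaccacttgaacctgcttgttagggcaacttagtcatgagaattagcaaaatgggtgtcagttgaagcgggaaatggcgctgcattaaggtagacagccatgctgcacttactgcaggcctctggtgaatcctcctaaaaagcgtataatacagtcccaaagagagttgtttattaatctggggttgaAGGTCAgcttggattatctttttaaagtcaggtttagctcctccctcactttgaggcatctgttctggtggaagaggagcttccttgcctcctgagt
Mbl1: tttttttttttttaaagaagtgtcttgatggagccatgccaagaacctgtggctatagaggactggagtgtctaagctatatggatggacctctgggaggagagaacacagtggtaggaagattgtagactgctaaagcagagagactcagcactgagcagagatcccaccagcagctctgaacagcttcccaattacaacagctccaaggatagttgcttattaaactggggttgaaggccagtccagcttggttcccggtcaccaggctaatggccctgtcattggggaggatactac
Mbl2 held 1 match, AGGTCA beginning at position -47 from the start, and Mbl1 held none. Of the 24 members with a window available, 7 held AGGTCA, against 16.3% of all 32851 windows. The holders were Mbl2 and C1qc, which were called, C3, C6, C8b and Cfp, which were not, and C7, which was not tested. The called C8g held no match to any of the motifs, and C4a had no window. TTCNNNGAA was in 5 members (8.3% of all windows), the interferon response core in 2 (3.44%) and TATAAA in 5 (13.6%). A match describes letters only, and binding was not measured.

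The remaining lectin pathway genes were not called. Masp1 and Masp2 encode the proteases carried by the lectins, of which MASP-1 activates MASP-2 and MASP-2 cuts C4 and C2. They were at 163 ± 7.98 and 251 ± 27.5 CPM in wild type and 145 ± 17.5 and 232 ± 25.2 CPM in knockout (SD, n = 3). Their log2 fold changes were -0.17 (SE 0.15) and -0.11 (SE 0.16). Masp2 overlaps Tardbp on the opposite strand over 57.2% of its 50-base windows. Reads in these windows cannot be told apart from that gene's without strand. Fcna, the plasma ficolin, was at 22.1 ± 2.84 and 24.1 ± 7.19 CPM (log2 fold change 0.15, SE 0.25). None of these genes passed the threshold (edgeR adjusted p = 0.58, 0.74 and 0.79).

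In the classical pathway C4a rose. C4 is cut by C1s or MASP2 and binds covalently to the target as C4b, and mice carry a duplicated pair of genes for it. C4b encodes the hemolytically active protein and C4a its paralogue, known as sex-limited protein. C4a was at 32.8, 27.1 and 30.3 CPM in wild type and 129, 115 and 109 CPM in knockout libraries. Both groups were tight and far apart, at 30.1 ± 2.86 and 118 ± 10.5 CPM (SD, n = 3), a log2 fold change of 1.96 (SE 0.16, edgeR adjusted p = 1.5e-05).

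C4b was much the more abundant gene and did not pass the threshold. It was at 826, 1729 and 1006 CPM in wild type and 1128, 1254 and 989 CPM in knockout libraries, with WT2 above all others. The log2 fold change was -0.08 (SE 0.23, edgeR adjusted p = 0.89), and it was 0.29 without WT2 (adjusted p = 0.48). C4a made up 3.82%, 1.54% and 2.92% of the reads of both genes in wild type and 10.3%, 8.40% and 9.92% in knockout libraries (exact two-sided permutation p = 0.1, the smallest possible). Summed, C4a and C4b were at 1217 ± 475 and 1241 ± 137 CPM, a log2 fold change of 0.03 (SE 0.23, edgeR adjusted p = 0.96, a sum chosen after seeing the data).

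The 2 C4 transcripts were aligned to show how far reads can separate them. Over 5367 aligned bases of the GENCODE M21 transcripts they differed at 207, an identity of 96.1%, and 35.2% of the 50-base windows of each were also in the other. GENCODE annotates C4b as protein coding and C4a as a processed transcript. The stretch of 60 bases within the longest open reading frame of C4b where they differ most is given below 5′ to 3′, with the 13 differing bases in capitals. It covers positions 2755 to 2814 of the C4a transcript and 2761 to 2820 of the C4b transcript.
C4a: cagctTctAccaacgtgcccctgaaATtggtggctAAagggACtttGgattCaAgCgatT
C4b: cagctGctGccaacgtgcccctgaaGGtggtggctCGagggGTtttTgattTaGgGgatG
The sources used here do not say how reads matching both genes were counted. Of the counter's 5 totals, only those for reads in no gene and for ambiguous reads were nonzero. No read was listed as aligned to several places, and whether such reads were removed before counting is not stated. The C4a and C4b values are therefore uncertain to the extent that reads matching both genes were placed on either.

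C4a lies in the major histocompatibility region of chromosome 17 (chr17:34809092-34823464 on GRCm38, minus strand), together with C4b, C2 and Cfb. Of 26 other tested genes within 500 kb of it, 2 were called higher by edgeR, against 3.08% of all tested genes, and 0 lower, against 2.65%. DESeq2 and limma-voom each called 1. An unadjusted edgeR p under 0.05 was found for 7, against 1864 of all 9180 tested genes. Cyp21a1, the steroid 21-hydroxylase gene 4.5 kb away, rose from 2.77 ± 1.97 to 9.57 ± 1.87 CPM (SD, n = 3, log2 fold change 1.77, SE 0.46, edgeR adjusted p = 0.04). These values rest on few reads, 1, 7 and 5 counts in wild type and 12, 20 and 30 in knockout libraries. The further gene was Hspa1b, a heat shock gene 133.0 kb away (10.2 ± 4.73 and 24.4 ± 5.66 CPM, adjusted p = 0.04). Within 500 kb of Mbl2, 4 other genes were tested, and edgeR, DESeq2 and limma-voom called 0 of them (0 at an unadjusted p under 0.05).

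C1q, the recognition molecule of the classical pathway, is built from 3 chains encoded side by side on chromosome 4 (C1qa, C1qc and C1qb). C1qc was at 7.68, 15.9 and 8.31 CPM in wild type and 20.4, 27.7 and 33.4 CPM in knockout libraries. The groups did not overlap (log2 fold change 1.38, SE 0.31, edgeR adjusted p = 0.018). C1qb was at 9.08, 13.2 and 16.6 CPM against 15.5, 33.1 and 43.8 CPM, where KO1 lay below WT3 (1.27, SE 0.35, adjusted p = 0.051). C1qa was at 6.99, 12.6 and 12.5 CPM against 11.8, 16.8 and 24.7 CPM, where KO1 lay below WT2 and WT3 (0.77, SE 0.33, adjusted p = 0.21). In each of the 3 chain genes KO3 was highest and KO1 lowest of the knockout libraries.

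The call of C1qc rested on single libraries. It ended without WT1, WT3 or KO3 (edgeR adjusted p = 0.085, 0.099 and 0.068), while C1qb was called without KO1 (adjusted p = 0.0038) and with DESeq2 (0.03). The Kupffer cell and macrophage markers, summed, were higher in KO2 and KO3 than in every wild type library, and KO1 lay below WT2. Their 17 genes, none at 0 in all libraries, had summed levels of 284 to 472 CPM in wild type and 422, 761 and 746 CPM in knockout libraries. Of 14 tested markers 2 were called higher by edgeR, Ctss and Mpeg1, against 3.08% of all tested genes, 4 by DESeq2 and 2 by limma-voom. The list's median log2 fold change was 0.78, with 13 positive and 1 negative. At an unadjusted edgeR p under 0.05, 10 were higher and 0 lower, against 949 and 915 of all 9180 tested genes. The 3 C1q genes together were at 23.7, 41.7 and 37.4 CPM in wild type and 47.7, 77.6 and 102 CPM in knockout libraries. The part of the macrophage signal in the C1q values was not tested.

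**Figure D3:**
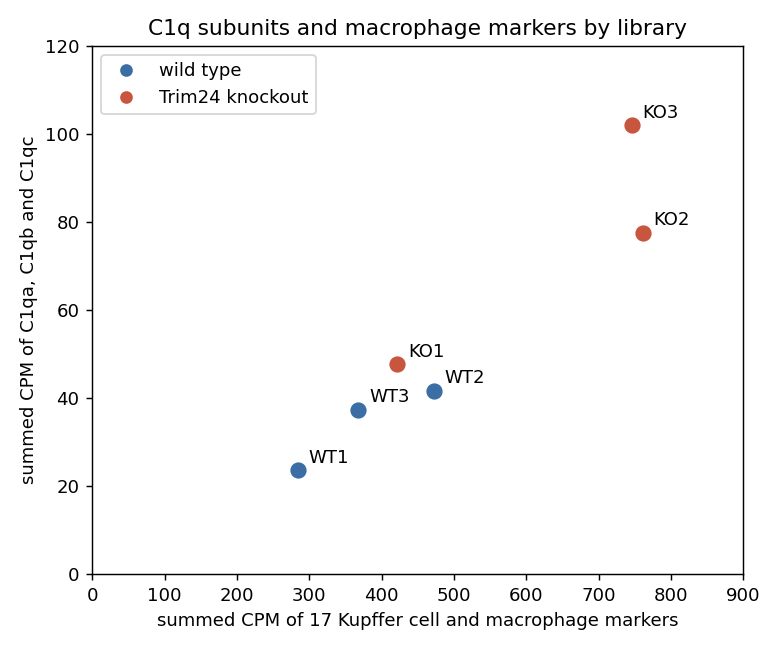
Summed CPM of the 3 C1q genes (vertical) against summed CPM of 17 Kupffer cell and macrophage markers (horizontal), 1 labelled point per library. KO2 and KO3 lie at the upper right, while KO1, at 422 CPM of markers and 47.7 CPM of C1q, lies beside WT2 (472 and 41.7 CPM).

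The windows around the starts of the neighbouring C1qc and C1qb genes are shown for comparison, in the same format and with the same motifs in capitals. Both are on the minus strand of GRCm38.p6, C1qc at chr4:136892865-136893164 and C1qb at chr4:136886151-136886450.
C1qc: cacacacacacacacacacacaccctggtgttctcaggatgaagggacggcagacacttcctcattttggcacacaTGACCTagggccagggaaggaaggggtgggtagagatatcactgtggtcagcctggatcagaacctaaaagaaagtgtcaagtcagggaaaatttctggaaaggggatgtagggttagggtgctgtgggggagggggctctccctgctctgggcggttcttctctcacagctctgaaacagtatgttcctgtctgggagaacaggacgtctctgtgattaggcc
C1qb: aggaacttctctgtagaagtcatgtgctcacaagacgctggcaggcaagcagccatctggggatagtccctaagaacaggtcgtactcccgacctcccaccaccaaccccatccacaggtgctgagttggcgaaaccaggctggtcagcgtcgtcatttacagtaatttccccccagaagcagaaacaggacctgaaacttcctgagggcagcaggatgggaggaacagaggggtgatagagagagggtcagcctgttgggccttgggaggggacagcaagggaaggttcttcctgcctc
C1qc held 1 match, AGGTCA on the opposite strand at position -174 from the start, and C1qb held none. As given above, AGGTCA was also held by members that were not called and was absent from the called C8g.

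The proteases of the classical pathway did not pass the threshold, although their knockout libraries all lay above the wild type ones. C1s, which cuts C4 and C2, was at 824, 667 and 689 CPM in wild type and 985, 1147 and 953 CPM in knockout libraries. The highest was KO2 (log2 fold change 0.50, SE 0.16, edgeR adjusted p = 0.077), and DESeq2 called it (adjusted p = 0.046). C1ra, which activates C1s, was at 564, 543 and 538 CPM against 626, 630 and 694 CPM (0.25, SE 0.14, edgeR adjusted p = 0.36). C2, which supplies the protease of the C3 convertase, was at 117, 104 and 107 CPM against 141, 131 and 167 CPM (0.42, SE 0.15, adjusted p = 0.13). These 3 genes share 50-base windows with other annotated genes: 39% for C1s (C1s2 and the opposite-strand Gm16567), 50.8% for C1ra (C1rb and the pseudogene Gm18840) and 58% for C2 (a read-through with Cfb). Over the 8 classical members, all of them tested, the median log2 fold change was 0.63, with 7 positive. Stellate cell markers had a median of 0.58 over 8 tested of 10, all positive. EdgeR called Dcn and Col1a2 higher, against 3.08% of all tested genes. The stellate list summed to 512 to 558 CPM in wild type and 674 to 796 CPM in knockout libraries. Liver endothelial markers had a median of -0.35 over 10. Tek was called higher, against 3.08%, and Stab2 and Ehd3 lower, against 2.65% of all tested genes. The endothelial list summed to 529 to 557 and 408 to 529 CPM. Cholangiocyte markers (1 of 8 tested, not called) summed to 16.0 to 32.8 and 24.2 to 44.0 CPM, and lymphocyte markers (0 of 8 tested) to 4.19 to 5.94 and 6.51 to 9.29 CPM. The part of these cell types in the classical pathway values was not tested.

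C3, the protein on which all routes converge, had the highest level per kilobase of the members. It was at 7138, 8172 and 6713 CPM in wild type and 7955, 9878 and 8052 CPM in knockout libraries. KO1 and KO3 lay below WT2, and the log2 fold change of 0.23 (SE 0.16, edgeR adjusted p = 0.44) did not pass. In the alternative pathway Cfb, the factor B that forms the convertase with C3b, was at 694, 752 and 688 CPM against 884, 936 and 890 CPM. Its groups were narrow and did not overlap, yet the change of 0.34 (SE 0.14) missed the threshold (edgeR adjusted p = 0.19). Cfb shares 81.4% of its windows with the read-through transcript that also covers C2.

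The other alternative pathway genes had few reads. Cfp, properdin, which stabilizes the convertase, was at 2.79, 9.26 and 5.34 CPM in wild type and 9.91, 9.23 and 12.5 CPM in knockout libraries, with KO2 level with WT2 (log2 fold change 0.87, SE 0.39, edgeR adjusted p = 0.23). Cfd, factor D or adipsin, had 0, 3 and 0 counts in wild type and 1 count in each knockout library, too few to test. Of 8 markers of fat, its usual source, Lep and Retn were at 0 in all 6 libraries and Adipoq and Plin1 in all but 1. The sum of the 8 (1805 to 2762 CPM in wild type, 572 to 1609 CPM in knockout libraries) was nearly all Car3, which liver also expresses and which was called lower. Adrb3, with 2, 5 and 0 counts in wild type and 14, 32 and 21 in knockout libraries, was called higher (edgeR adjusted p = 0.023), and Fabp4 had 4 to 19 counts in every library and was not called. A count of 0 allows up to 2.1 CPM in WT1 and 1.78 CPM in WT3, taken as 3 counts and covering counting error only.

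In the terminal pathway 1 of 6 tested genes was called lower by edgeR, against 2.65% of all tested genes, and 0 higher, against 3.08%. C8g encodes the gamma chain of C8, a lipocalin-type protein bound to the alpha chain. It was at 120, 140 and 143 CPM in wild type and 89.2, 63.5 and 96.7 CPM in knockout libraries. Every knockout library lay below every wild type library, and KO2 was lowest (134 ± 12.1 and 83.1 ± 17.4 CPM, SD, n = 3). The log2 fold change was -0.68 (SE 0.18, edgeR adjusted p = 0.037), also called by DESeq2 and limma-voom. The call ended without WT1, WT2, WT3 or KO2 (adjusted p = 0.059, 0.12, 0.14 and 0.14).

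The other C8 chains were not called. C8a was at 1078, 1288 and 885 CPM against 1067, 1288 and 1043 CPM, and C8b at 930, 696 and 643 CPM against 759, 963 and 1072 CPM, both overlapping. Their log2 fold changes were 0.06 (SE 0.17) and 0.30 (SE 0.18), and neither passed (edgeR adjusted p = 0.88 and 0.39). C8g made up 5.65%, 6.57% and 8.53% of C8 reads in wild type and 4.66%, 2.74% and 4.37% in knockout libraries (exact two-sided permutation p = 0.1, the smallest possible). Per kilobase of transcript, C8g (117 CPM in wild type, 72.3 in knockout) was below C8a (300 and 313) and C8b (338 and 416) in both groups.

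**Figure D4:**
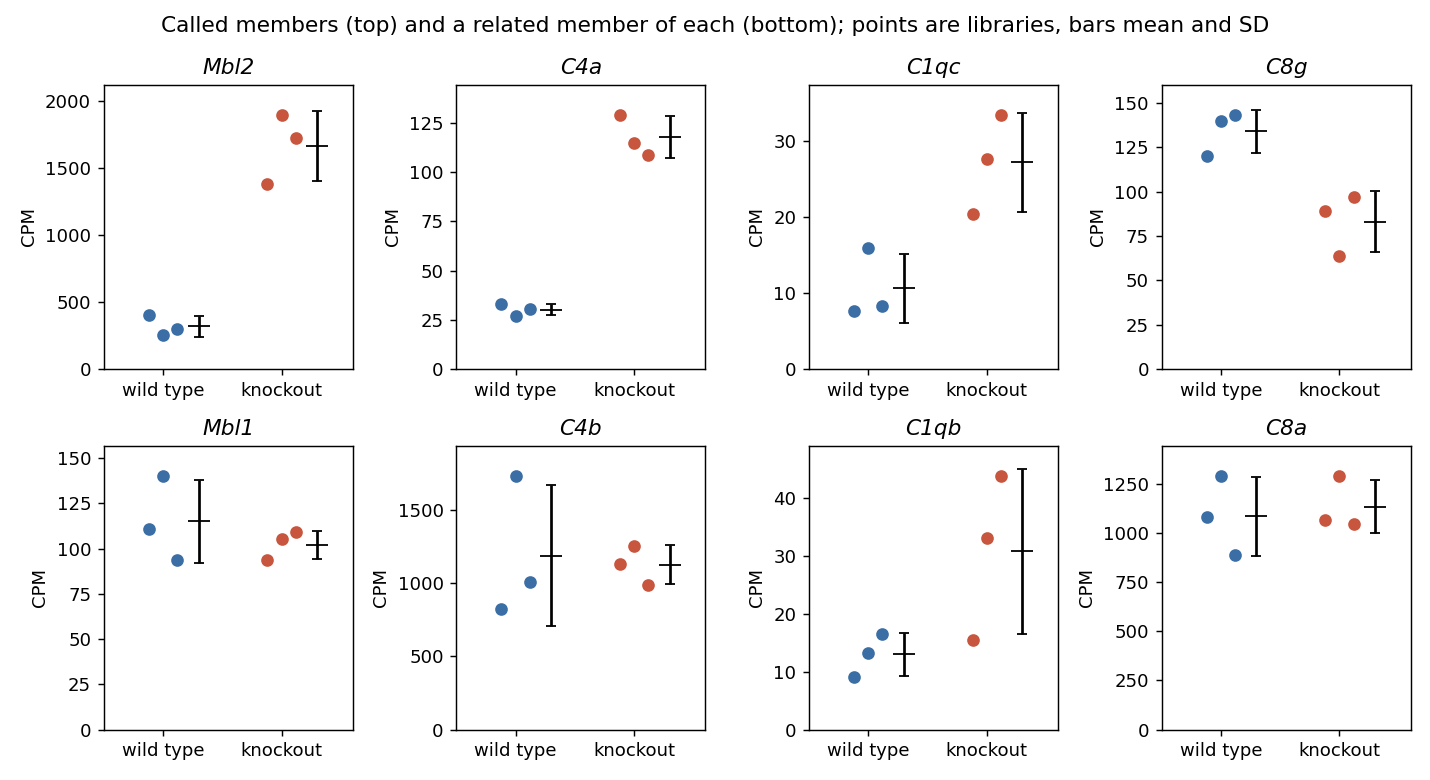
CPM of the 4 called members (top) and of a related member of each (bottom) in wild type and knockout livers, with 1 point per library and bars for the mean and SD (n = 3), each axis starting at 0. The groups are apart for Mbl2, C4a, C1qc and C8g, and overlap for Mbl1, C4b, C1qb and C8a.

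Hc, the mouse gene for C5, from which the terminal complex starts, was not called. It was at 1414, 2055 and 1285 CPM in wild type and 2009, 2651 and 2055 CPM in knockout libraries, with WT2 level with KO1 and KO3 (log2 fold change 0.50, SE 0.19, edgeR adjusted p = 0.16). C6 and C9, pore-forming members of the complex, were at 434 ± 38.0 and 471 ± 80.8 CPM in wild type and 509 ± 27.6 and 560 ± 109 CPM in knockout (SD, n = 3, log2 fold changes 0.23 and 0.25, adjusted p = 0.42 and 0.48). C7, which follows C6 in the complex, was near the limit of detection, with 3, 3 and 2 counts against 8, 10 and 8. It was not tested in the main fit, and the fit without a filter did not call it (1.23, SE 0.66, edgeR adjusted p = 0.36).

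No regulator was called by edgeR, DESeq2 or limma-voom (0 of 6). Of all tested genes, edgeR called 3.08% higher and 2.65% lower. An unadjusted edgeR p under 0.05 was found for 1, against 1864 of all 9180 tested genes. Vtn, vitronectin, which keeps the terminal complex out of membranes, was at 1285, 1605 and 1428 CPM in wild type and 1317, 1457 and 1404 CPM in knockout libraries (log2 fold change -0.05, SE 0.15, adjusted p = 0.9). Clu, clusterin, which also blocks the terminal complex, was at 1067, 1153 and 995 CPM against 1203, 1648 and 1270 CPM. Its groups did not overlap, with KO2 highest (0.36, SE 0.16, adjusted p = 0.23). Cfi, the protease that inactivates C3b and C4b, was at 638 ± 68.2 and 787 ± 115 CPM (0.30, SE 0.16, adjusted p = 0.32). C4bp, the plasma cofactor for C4b cleavage, was at 580 ± 43.0 and 609 ± 59.8 CPM (0.07, SE 0.15, adjusted p = 0.85).

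The membrane-bound regulators were not called. Cd55, which speeds the decay of convertases, was at 16.1 ± 1.96 and 14.9 ± 0.692 CPM, and Cd59a, which blocks C9, at 62.8 ± 9.91 and 56.0 ± 6.51 CPM (SD, n = 3, edgeR adjusted p = 0.83 and 0.64). The receptors for the C3a and C5a fragments were near the limit of detection. C3ar1 had 5, 9 and 10 counts in wild type and 9, 22 and 24 in knockout libraries, and C5ar1 had 0, 3 and 1 against 4, 2 and 11. Neither passed the filter, and in the fit without it neither was called (adjusted p = 0.42 and 0.44).

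Among 35 other genes of the pathway that are outside the 32, 30 were found and 18 tested. By edgeR 1 was called higher, against 3.08% of all tested genes, and DESeq2 and limma-voom each called it too. None was called lower by edgeR, against 2.65%, nor by DESeq2 or limma-voom. At an unadjusted edgeR p under 0.05, 5 were higher and 1 lower, against 949 and 915 of all 9180 tested genes. The riser was Itgb2, the beta chain of the leukocyte complement receptors CR3 and CR4. It was at 3.49, 3.97 and 3.56 CPM in wild type (5, 6 and 6 counts) and 13.0, 16.3 and 12.2 CPM in knockout libraries (21, 30 and 35 counts). These groups were far apart (log2 fold change 1.88, SE 0.34, edgeR adjusted p = 0.0058). Itgam and Itgax, the alpha chains of these receptors, had too few reads to test. Their groups overlapped, at 3.30 ± 1.43 and 5.22 ± 4.49 CPM for Itgam and 0.674 ± 0.662 and 1.61 ± 1.34 CPM for Itgax (SD, n = 3). Vsig4, the complement receptor of Kupffer cells, was at 25.2 ± 13.3 and 37.2 ± 12.9 CPM and was not called (0.58, SE 0.35, adjusted p = 0.38). The 7 neutrophil markers found summed to 13.1 to 17.9 CPM in wild type and 29.7 to 41.2 CPM in knockout libraries. Only 2 of them passed the filter. Csf3r was called higher by edgeR (adjusted p = 0.04), against 3.08% of all tested genes, but by neither DESeq2 nor limma-voom. Cxcr2, at 10.6 ± 1.21 and 14.9 ± 2.20 CPM (SD, n = 3), was not called. The part of leukocyte RNA in the Itgb2 value was not tested.

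Colec10, a liver collectin that also recruits MASPs, missed the threshold at 85.4 ± 8.77 and 124 ± 7.97 CPM (SD, n = 3, log2 fold change 0.54, SE 0.15, edgeR adjusted p = 0.054), with groups that did not overlap. It was singled out after its values were seen, as was Serping1, the C1 inhibitor, at 588 ± 114 and 782 ± 165 CPM (0.41, SE 0.19, adjusted p = 0.24).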

How the data were processed

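Per the labels' protocols, TRIzol RNA of homogenized liver was reverse transcribed (SuperScript) and made into Illumina libraries. The authors deposited raw read counts per gene symbol, 1 table per library, with 23284 genes and 5 totals of the counter. Per the submitters' processing notes, HTSeq, TopHat 1.4.1, the mm9 build and edgeR were used, with no roles given. Whether counting used strand is not stated in these sources. Reads in no gene (93.3% to 95.8%) entered neither library sizes nor tests. No column was left unused (0).

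Counts were tested with edgeR 4.0.16 (R 4.3.3), quasi-likelihood F test, TMM factors, genotype as the only term and filterByExpr with a minimum count of 10. Adjusted p is Benjamini-Hochberg over all 9180 tested genes, with calls under 0.05. The SE of the edgeR fits is the absolute log2 fold change over the square root of F. The fit was first tested on simulated counts. The members and all lists, tests and alternatives were chosen with earlier results of these data known. Fully described genes were called or non-overlapping members, the member with the highest mean CPM in each role, and, of other pathway genes, the called ones. An item chosen beside these is not reported here. Other values were added for completeness.

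Lengths and exon overlaps came from GENCODE M21 (GRCm38), using the longest transcript, coding where one is annotated, and start regions from RefSeq. Since the notes name mm9, positions describe the annotation only. Windows of 50 bases were matched on both strands. Alternatives used DESeq2 1.42.0, limma 3.58.1 voom, other scaling, filters and thresholds, a replicate block and libraries left out. Python 3.11.15, pandas 2.3.3, scipy 1.17.1 and Biopython 1.88 were used.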

Additional observations from a re-analysis of the deposited data

How the results depend on the processing

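Mbl2 and C4a were called in every alternative run for single genes, with log2 fold changes of 2.24 to 2.59 and 1.89 to 2.03 and adjusted p up to 0.00056 and 0.0005. The 3 members called higher became 5 with DESeq2 and 5 at a threshold of 0.10, where C1qb and C1s were added. Among all tested genes, calls of higher went from 283 to 260 with DESeq2 and 445 at 0.10. At a threshold of 0.01 the 3 members became 2, without C1qc, against 118 of all tested genes. With libraries left out, 2 to 4 members were called higher, against 127 to 409 of all tested genes. The 1 member called lower became 0 at a threshold of 0.01, where calls among all tested genes went from 243 to 67. With libraries left out, 0 to 1 members were called lower, against 95 to 363 of all tested genes. The 1 other complement gene called higher became 2 with upper-quartile factors and 2 at a threshold of 0.10, with Colec10 added. All tested genes called higher were 309 and 445 in these settings. With KO2 as the only knockout library, the members' median log2 fold change was 0.35. That fit assumes that the lone library varies like wild type. The members' median was 0.21 to 0.35 in all 15 alternatives. C4b changed sign without WT2 (0.29), without KO3 (0.00) and with KO2 alone (0.08) and Vtn without WT2 (0.03) and with KO2 alone (0.01), neither of them called (with libraries left out, C4b ranged from -0.29 to 0.29 and Vtn from -0.13 to 0.03). With the replicate block, 4 members were higher (C1qb added) and 1 lower, against 295 and 250 of all tested genes. Same-numbered libraries deviated together at r = -0.07, 0.08 and 0.03, so the numbers were not taken as pairs. With C4a and C4b summed, an alternative chosen after seeing the data, 2 members were higher, against 282 of all tested genes. The cause of these shifts was not tested. Few reads in genes kept C7, Cfd, C3ar1 and C5ar1 out of the test and limit Cfp, with 4 counts in WT1.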
